A study of Mus musculus with 10 samples.

Results

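The collagen genes of mouse olfactory epithelium were compared between animals carrying the human APOE alleles labelled Apoe3 and Apoe4. Members were all rows of the authors' deposited table whose symbol reads Col, a number, the letter a and a number, which gave 44 of 24421 genes. Poly(A)-selected RNA of olfactory epithelium, the sensory lining of the nose, was sequenced from 4 Apoe3 and 6 Apoe4 mice. All animals had a C57BL/6 background, were 6 months old and were untreated. The series title names the alleles as human. The sources used here give neither the way they were placed in the mouse genome nor the sex of the animals. The authors' deposited table holds 1 row per gene for the comparison and no values per library, so levels are means over all 10 libraries and the spread between animals enters through the standard error of each fold change.

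Collagens are extracellular proteins built from chains wound into a triple helix, whose repeat unit is a triplet that opens with glycine (Gly-X-Y). Fibrillar collagens give connective tissue its tensile strength, type IV forms the sheet-like scaffold of basement membranes, and fibril-associated collagens sit on the surface of fibrils. In the nose they are made mainly by fibroblasts of the lamina propria below the epithelium, by cells of blood vessels and glia, and by the bone and cartilage that support the mucosa. Epithelial cells make some as well, such as the transmembrane collagen Col17a1 that anchors basal cells.

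The triplet repeat that defines the family was read from the longest coding sequence of each member in GENCODE vM21 (GRCm38), where a glycine codon is GG followed by any base. Stretches of the 2 members that rose in Apoe4, Col22a1 and Col27a1, are shown beside Col1a1, a typical fibrillar chain, and Col4a1, whose helix is broken. Capitals mark the glycine codon at the first place of each triplet. The first 3 open the longest unbroken run of their gene, and the last spans a break.
Col22a1 codons 1107 to 1136: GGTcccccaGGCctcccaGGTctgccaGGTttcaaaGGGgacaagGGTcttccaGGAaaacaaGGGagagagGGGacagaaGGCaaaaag
Col27a1 codons 673 to 702: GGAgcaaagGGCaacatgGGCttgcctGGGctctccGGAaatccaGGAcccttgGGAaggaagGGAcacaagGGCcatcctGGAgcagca
Col1a1 codons 168 to 197: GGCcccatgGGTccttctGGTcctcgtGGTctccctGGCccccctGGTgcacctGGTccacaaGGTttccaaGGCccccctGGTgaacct
Col4a1 codons 323 to 352: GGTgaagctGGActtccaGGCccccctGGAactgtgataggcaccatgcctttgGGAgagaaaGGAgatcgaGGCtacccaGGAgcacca

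Every one of the 44 members held at least 2 runs of 10 or more triplets, with longest runs from 23 triplets in Col26a1 to 344 in Col3a1. The 11 fibrillar chains had longest runs of 216 to 344 triplets. Within that class Col24a1 and Col27a1 stood apart, with longest runs of 216 and 217 triplets, while the other 9 had 337 or more. Col22a1 held 334 triplets in 9 runs, the most triplets among the fibril-associated members, and its longest run of 113 triplets equalled that of Col9a1, Col9a2 and Col9a3. Type IV chains were broken often, with 16 to 18 runs, and the Col4a1 stretch shown has a break of 6 codons. Col7a1 held the most triplets of the family, 461, also in 18 runs.

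**Figure D1:**
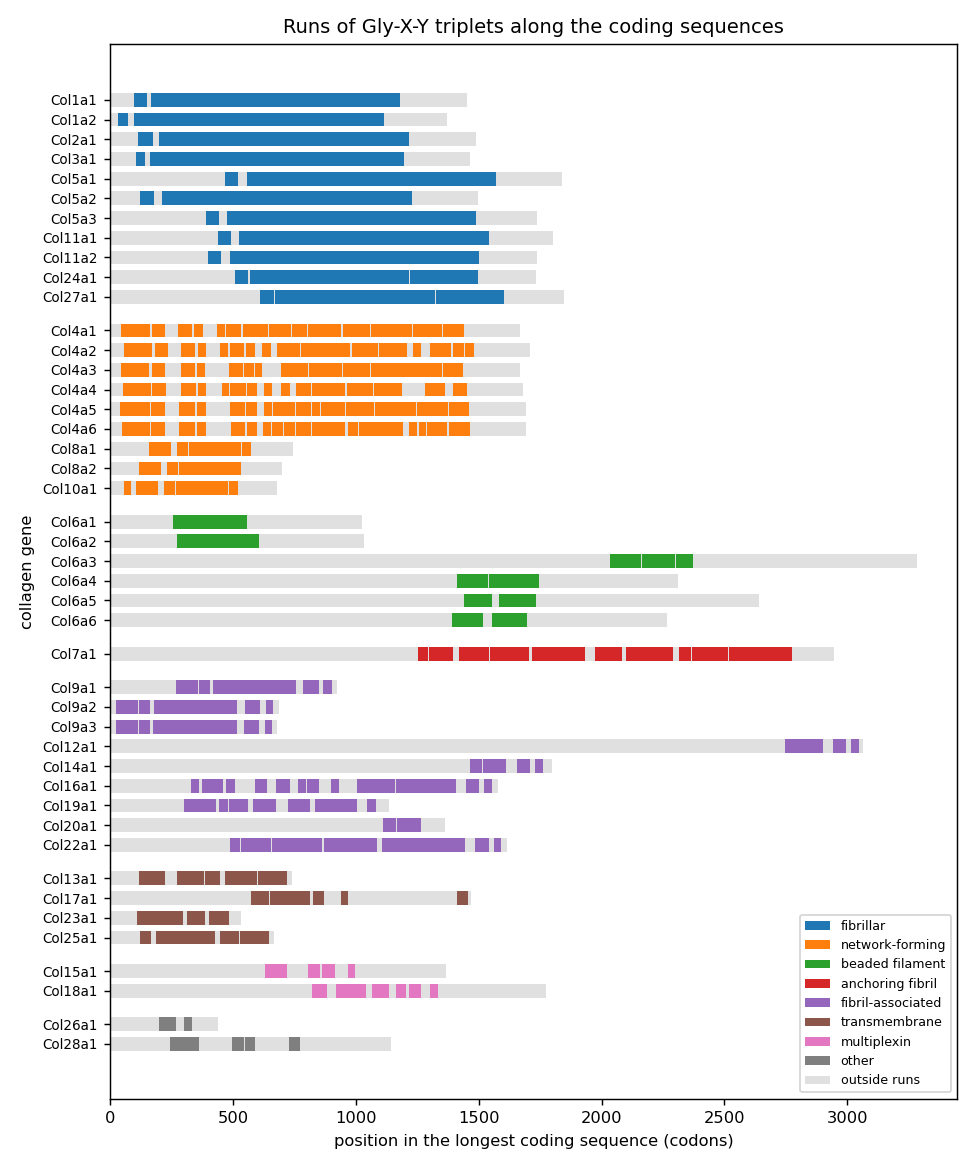
Runs of at least 10 Gly-X-Y triplets (coloured by class) along the longest coding sequence of each of the 44 collagen genes, with the position in codons on the horizontal axis and coding sequence outside the runs in grey. Most fibrillar chains show 1 long block, type IV chains up to 18 short ones, and the 9 runs of Col22a1 begin at codon 488 of 1613.

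Library sizes read from the deposited means ran from about 14900000 to 20100000 assigned reads. The olfactory neuron marker Omp had a mean normalized count of 113676 and the supporting-cell enzyme Cyp2g1 of 63585 in the authors' deposited table, so both defining cell types of the tissue were present. In the authors' deposited table, 4 of 4 tested genes of the Y chromosome were called lower in Apoe4 (log2 fold changes from -3.72 to -2.80). Y-linked RNA thus differed between the groups, and for every collagen value this difference and genotype cannot be told apart.

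Type I collagen dominated the family. Its chains Col1a2 and Col1a1 had mean normalized counts of 21034 and 19146 in the authors' deposited table, and made up 62.7% of the collagen sum of 64032. That sum was 0.368% of all normalized counts. Per kilobase of the longest transcript, the scale on which genes can be compared, Col1a2 stood at 3933 and Col1a1 at 3229 normalized counts (percentiles 98.9 and 98.5 of tested genes). Col3a1, the fibrillar partner of type I in soft tissue, followed at 840 per kilobase. Next came Col8a2, a short-chain network collagen, at 437, and Col6a1, of the microfibrils around cells, at 277. Col16a1 and Col5a2 were close together at 218 and 217 per kilobase.

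Chains of 1 collagen type differed in level per kilobase to varying degrees. Col1a2 over Col1a1 gave a ratio of 1.22, although the type I molecule holds more alpha1 than alpha2 chains. The main basement membrane chains Col4a1 and Col4a2 stood at 132 and 105 per kilobase, a ratio of 1.25. Their relatives Col4a5 at 30.1, Col4a6 at 6.65, Col4a3 at 2.47 and Col4a4 at 1.65 per kilobase were lower, and Col4a1 exceeded Col4a3 by a factor of 53.2. In type VI, Col6a1 was 1.77 times Col6a2 and 5.04 times Col6a3 per kilobase. Col8a2 was 4.03 times Col8a1, and Col11a2, at 150, was 1.70 times Col11a1 at 88.2. In type IX, Col9a1 stood at 123, Col9a2 at 82.0 and Col9a3 at 70.5 per kilobase, and in type V, Col5a1 at 110 was 10.8 times Col5a3 at 10.2. These ratios are of means over 10 libraries, take 1 transcript per gene, and carry no error.

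Collagens known from cartilage and growth plate varied in level, all below type I. Col2a1, the main cartilage collagen, had 18.1 normalized counts per kilobase and Col10a1, of hypertrophic cartilage, 29.0. The cartilage-type chains Col11a2 and Col11a1 stood higher, at 150 and 88.2, as did the type IX chains, at 70.5 to 123. Col22a1 stood at 36.9 per kilobase (percentile 25.4 of tested genes) and Col27a1 at 58.7 (percentile 32.6), so neither was among the abundant members. At the low end, Col19a1 and Col6a6 had mean normalized counts of 2.57 and 3.30 in the authors' deposited table, were marked low by the authors and got no adjusted p. The members nearest above that filter, at a mean of about 10, were Col4a4 at 16.7, Col4a3 at 21.2 and Col6a4 at 43.8 normalized counts in the authors' deposited table. Comparisons between the alleles thus cover 42 of the 44 members.

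**Figure D2:**
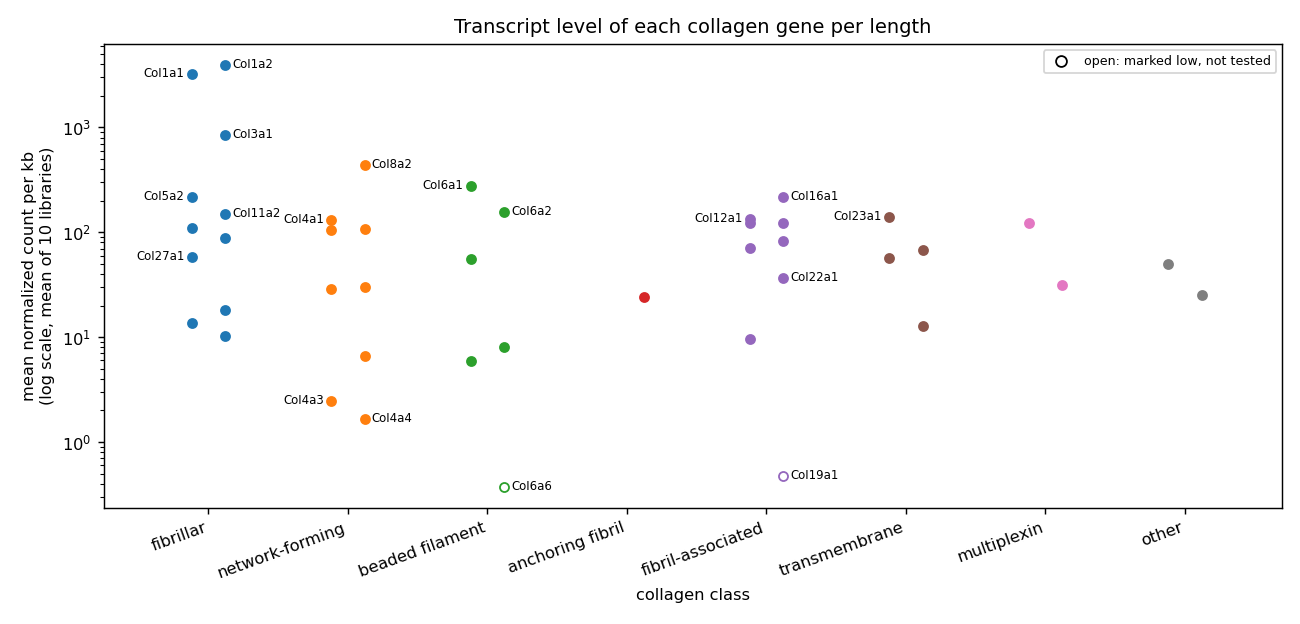
Mean normalized count per kilobase of the longest transcript (log scale, mean of 10 libraries) for each of the 44 collagen genes by class. Col1a2 (3933) and Col1a1 (3229) lie above all others, Col22a1 (36.9) and Col27a1 (58.7) in the middle, and the open points are Col19a1 and Col6a6, which were not tested.

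Between the alleles, 2 collagen genes rose in Apoe4 and none fell. By the deposited folds Col22a1, a fibril-associated collagen known from the junction of muscle and tendon, rose most. Col27a1, a fibrillar collagen known from cartilage, rose by a smaller step on that scale. These 2 were 4.76% of the 42 members tested, where the authors' deposited table called 0.779% of all 16050 tested genes in either direction, 0.324% as higher and 0.455% as lower, at an adjusted p under 0.05 (DESeq2 Wald test with Benjamini-Hochberg adjustment). In whole tissue, more cells of a type and more RNA per cell cannot be told apart.

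Col22a1 (chromosome 15, 71795795 to 72034227, GRCm38, minus strand, protein coding, 64 exons in its longest transcript) had a mean normalized count of 325 in the authors' deposited table. Its log2 fold change was 0.70 ± 0.10 (standard error, SE) per the authors' deposited table (DESeq2 adjusted p = 3.68e-09), a 1.63-fold higher level in Apoe4, and its p ranked 20 of all tested genes. Folds in that table were shrunk towards 0, and with 4 and 6 libraries this fold and mean imply about 236 normalized counts in Apoe3 and 384 in Apoe4. Undoing the shrinkage has 2 solutions: a log2 fold change of 1.11, which implies about 192 and 414 normalized counts, or of 1.92. Which of them applies cannot be read from the table. Of the exonic bases of Col22a1, 16 (0.174%) overlap an antisense gene, Gm16308, and the strandedness of the counting is not given in the sources used here. Longer overlaps with other genes touched Col9a3 (6.07% of its exonic bases, with Tcfl5) and Col4a3 (5.65%, with C430014B12Rik), whose values are less certain for that reason.

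Col27a1 (chromosome 4, 63214004 to 63334991, GRCm38, plus strand, protein coding, 61 exons in its longest transcript) had a mean normalized count of 447 in the authors' deposited table. It rose by 0.42 on the log2 scale ± 0.09 (SE) per the authors' deposited table (DESeq2 adjusted p = 3.98e-04), a 1.34-fold higher level in Apoe4. The mean and the deposited fold imply about 371 normalized counts in Apoe3 and 497 in Apoe4. With the shrinkage undone the solution nearer 0 was a log2 fold change of 0.53 and the farther one 1.98, and which of them applies cannot be told. Against a fold of 1.2 instead of no change, the deposited fold and error of Col22a1 still passed (adjusted p = 0.0134) and those of Col27a1 did not (adjusted p = 1). Here 1.2 is a fold on the shrunken scale, and the matching fold without shrinkage is larger and differs between genes. Values of single animals were not analysed here, so whether the groups overlap is not shown.

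Counts of calls around both loci are a description, since at the 0.779% called over all tested genes a window this small would usually hold none. Within 2.5 Mb on each side of Col22a1, 0 of 9 other tested genes were called. All 9 lay at higher coordinates than Col22a1, so the window held no tested gene on the other side. Their log2 fold changes ran from -0.24 to 0.12, with a smallest DESeq2 adjusted p of 0.382 in the authors' deposited table. Around Col27a1, 0 of 25 others were called, with log2 fold changes from -0.16 to 0.09 and a smallest adjusted p of 0.160 in the authors' deposited table. The median log2 fold change was 0.0045 among the neighbours of Col22a1 and -0.05 among those of Col27a1.

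The other 40 tested members did not pass, and most had small positive folds. Of the 42, 36 were above 0 and 6 below, with a median log2 fold change of 0.11 in the authors' deposited table, against 51.1% of all tested genes above 0 and a median of 0.00. At an unadjusted p under 0.05, 11 members (26.2%) were higher and 0 lower, where 4.54% of all tested genes were higher and 5.76% lower at that level. Standard errors of the members' log2 folds ran from 0.07 to 0.11. Collagen genes are often active in the same cells, so members are not independent of each other.

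**Figure D3:**
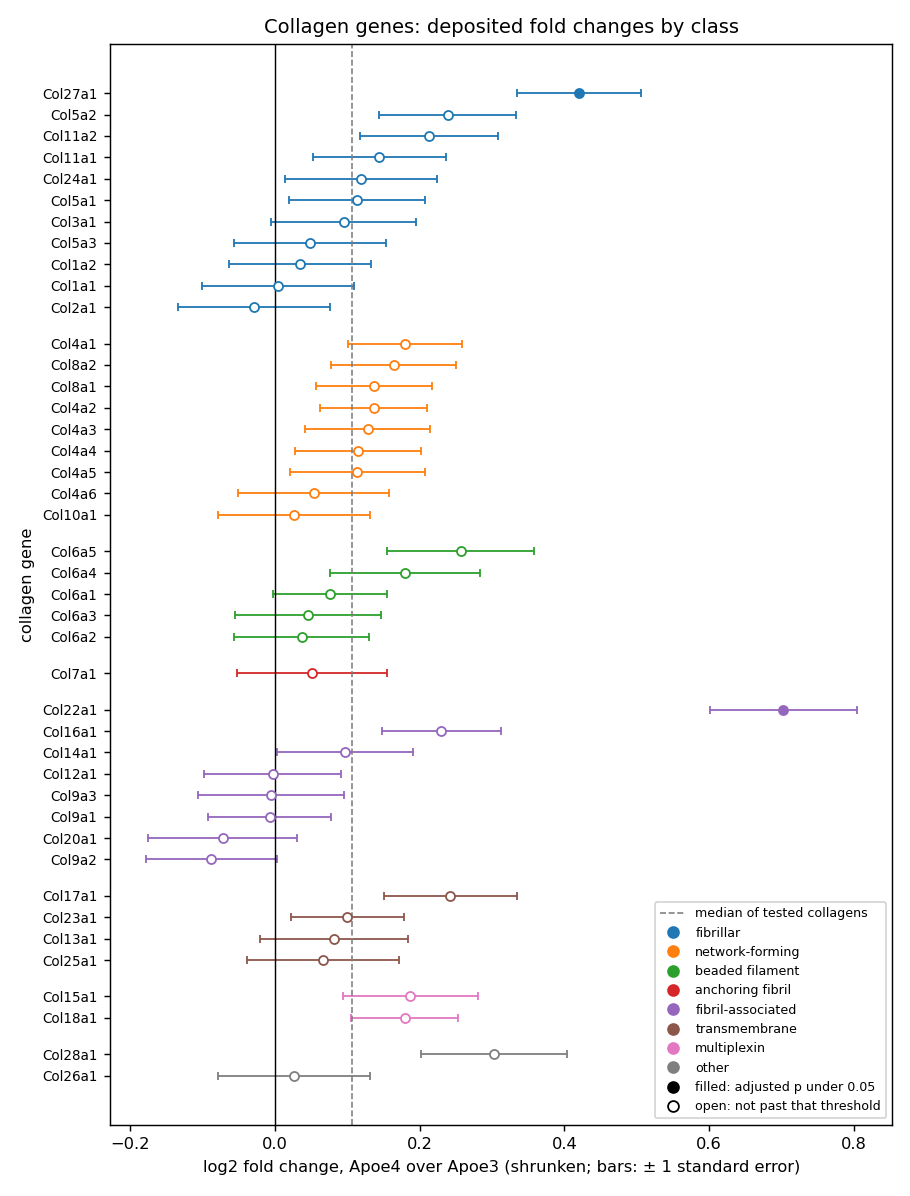
Log2 fold change (Apoe4 over Apoe3, shrunken, ± 1 standard error) of the 42 tested collagen genes by class, with the median of 0.11 as a dashed line. Only Col22a1 (0.70) and Col27a1 (0.42), drawn filled, have an adjusted p under 0.05, and 36 of the 42 points lie above 0.

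Among the 11 fibrillar members, 10 were above 0 and only Col27a1 passed, with a class median log2 fold change of 0.11. With the trend of folds on transcript length over all tested genes subtracted, 7 of 11 were above 0 and the median was 0.05. Col5a2, which starts fibrils together with Col5a1, was at 0.24 ± 0.09 (SE) per the authors' deposited table (adjusted p = 0.314), and Col5a1, its partner, was at 0.11. The cartilage-type partners Col11a2 and Col11a1 were at 0.21 and 0.14 per the authors' deposited table (adjusted p = 0.41 and 0.605). The abundant chains were near 0: Col1a1 at 0.00, Col1a2 at 0.03 and Col3a1 at 0.10, each ± 0.10 (SE) per the authors' deposited table. Col24a1, the member most like Col27a1 in its triplet runs, was at 0.12 ± 0.11 (SE) per the authors' deposited table (adjusted p = 0.736). Col2a1 was the 1 fibrillar member below 0, at -0.03 per the authors' deposited table.

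All 9 network-forming members were above 0 and none passed, with a median of 0.13, and with the length trend subtracted 8 of 9 were above 0 with a median of 0.07. The divergent basement membrane pair Col4a1 and Col4a2, whose 5′ ends overlap by 22 exonic bases, stood at 0.18 and 0.14 with standard errors of 0.08 and 0.07 per the authors' deposited table (adjusted p = 0.395 and 0.51). The pair Col4a3 and Col4a4 was at 0.13 and 0.11, and the X-linked pair Col4a5 and Col4a6 at 0.11 and 0.05 in the authors' deposited table. Col8a2 and Col8a1 were at 0.16 and 0.14 per the authors' deposited table (adjusted p = 0.497 and 0.556). Partners within each of these pairs differed by less than either SE.

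In type VI, Col6a5 and Col6a4 were at 0.26 and 0.18 ± 0.10 (SE) per the authors' deposited table (adjusted p = 0.314 and 0.552). The more abundant chains Col6a1, Col6a3 (the longest chain of type VI) and Col6a2 lay nearer 0, at 0.08, 0.05 and 0.04 per the authors' deposited table. Col7a1, the collagen of anchoring fibrils below epithelia, was at 0.05 ± 0.10 (SE) per the authors' deposited table (adjusted p = 0.903).

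The fibril-associated class was the most divided, with 3 of 8 tested members above 0 and a median of -0.0044 (-0.01 with the length trend subtracted). Beside Col22a1 these were Col16a1, at 0.23 ± 0.08 (SE) per the authors' deposited table (adjusted p = 0.225), and Col14a1 at 0.10 (adjusted p = 0.762). Col12a1, a relative of Col14a1 on type I fibrils, was at -0.0033 (adjusted p = 0.996) per the authors' deposited table. The 3 type IX chains, found on cartilage fibrils, were at -0.01 for Col9a1, -0.09 for Col9a2 and -0.01 for Col9a3 per the authors' deposited table (adjusted p = 0.988, 0.784 and 0.993). Col20a1 was at -0.07 per the authors' deposited table (adjusted p = 0.858). Of the 6 members below 0, 5 belonged to this class.

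Collagens held in membranes and at the vessel or epithelial border had small positive values. Col17a1, the hemidesmosome collagen of basal epithelial cells, was at 0.24 ± 0.09 (SE) per the authors' deposited table (adjusted p = 0.278), and the other transmembrane members, Col13a1, Col23a1 and Col25a1, were at 0.07 to 0.10. The multiplexins Col18a1 and Col15a1, whose C-terminal pieces are released as endostatin and a related fragment, were at 0.18 and 0.19 per the authors' deposited table (adjusted p = 0.348 and 0.476). Col28a1, a collagen known from peripheral nerve and its glia, was at 0.30 ± 0.10 (SE) per the authors' deposited table (adjusted p = 0.171), the smallest p of the members that did not pass. Col26a1 was at 0.03 per the authors' deposited table.

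Transcript length moved with these folds. Over 15952 tested genes with an annotated length, log2 fold change and length had a Spearman rho of 0.411 (Pearson r = 0.318 on log2 length). Genes are not independent replicates, so no p is given. Collagen transcripts are long, from 2781 to 11511 bases with a median of 5989 against 3341 for all tested genes, and at their lengths the genome-wide trend itself lay at a median log2 fold change of 0.05. Within the family, rho was 0.351 for length and 0.075 for mean count over 42 members.

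With that trend subtracted, both calls held: Col22a1 was at 0.64 (adjusted p = 3.58e-07) and Col27a1 at 0.36 (adjusted p = 0.00889), where 0.633% of all genes were called. The median of the 42 members was then 0.06 instead of 0.11, and 29 members were above 0 instead of 36. At an unadjusted p under 0.05, 5 members (11.9%) were then higher, where 3.63% of all genes were. These 5 were Col22a1, Col27a1, Col28a1, Col16a1 and Col17a1. Of the abundant chains, Col1a1 lay at -0.05 and Col1a2 at -0.01 after subtraction. What lies behind the length trend was not tested.

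**Figure D4:**
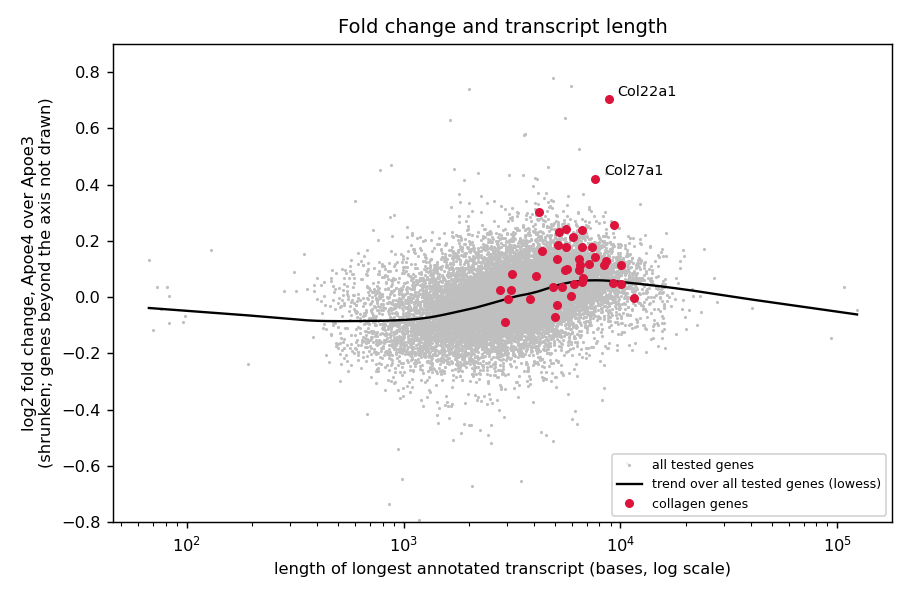
Log2 fold change (Apoe4 over Apoe3, shrunken) against the length of the longest annotated transcript (log scale) for 15942 tested genes within the axis limits (grey; 10 genes beyond them are not drawn), with the lowess trend over all tested genes as a black line and the 42 collagen genes in red. Most collagens lie at lengths where the trend is above 0, and Col22a1 and Col27a1 stand well above the trend.

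Among genes that build, bind or break down collagen, 1 of 89 tested in 6 lists was higher and 0 were lower, a share near the 0.779% called over all tested genes. Of the 89, 56 were above 0, with a median log2 fold change of 0.04 (51 and 0.03 with the length trend subtracted). The called gene was Creb3l1, a membrane-bound transcription factor of secretory cells that is known to drive type I collagen transcription in bone. It rose by 0.27 ± 0.07 (SE) per the authors' deposited table (DESeq2 adjusted p = 0.0125), while Col1a1 and Col1a2 were at 0.00 and 0.03. It also passed with the length trend subtracted (adjusted p = 0.00604), but not against a shrunken fold of 1.2 (adjusted p = 1).

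By role, 14 of 21 tested folding and modification genes were above 0 (median 0.05), Serpinh1, the collagen chaperone HSP47, being at 0.14 (adjusted p = 0.584). Of 13 procollagen cleavage and crosslinking genes, 9 were above 0 (median 0.05). Pcolce2, an enhancer of procollagen C-proteinase, was at -0.18 and Tll1, a related proteinase, at 0.20 per the authors' deposited table (adjusted p = 0.314 and 0.441). Collagen receptors had 10 of 11 tested members above 0 and a median of 0.12, and with the length trend subtracted 10 of 11 and 0.11. The smallest p among them were those of Ddr2, a receptor kinase for fibrillar collagen, at 0.22, and Itga11, an integrin chain of fibroblasts, at 0.23 per the authors' deposited table (adjusted p = 0.345 and 0.399). Degradation genes and inhibitors were above 0 in 8 of 13 (median 0.04), with Mmp14, a membrane-bound collagenase, at 0.22 and Timp3, a matrix-bound inhibitor, at 0.19 (adjusted p = 0.329 and 0.461) in the authors' deposited table.

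Among proteins that coat or bind fibrils, 3 of 14 tested members were above 0, with a median of -0.07, and none passed. Fn1, fibronectin, was at 0.29 with a standard error of 0.09 (adjusted p = 0.128), while Comp, a cartilage and tendon matrix protein, was at -0.26, Aspn at -0.24 and Fmod, fibromodulin, at -0.18 per the authors' deposited table (adjusted p = 0.346, 0.353 and 0.36). The difference between this list and the collagens was not tested. In the TGF-beta list 12 of 17 were above 0 (median 0.02), but 7 of 17 with the length trend subtracted (median -0.02). The smallest p there belonged to Ltbp1 at 0.19 and Tgfbr1 at 0.16 per the authors' deposited table (adjusted p = 0.426 and 0.439).

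Markers of cells that make collagen lay on both sides of 0, and their part in the collagen folds was not tested. Over all 76 tested markers 0 were called higher and 3 lower, where 0.455% of all tested genes were called lower. Of 9 tested fibroblast markers, 5 were above 0 (median 0.02), but 4 with the length trend subtracted (median -0.04), and 1 passed: Twist2, a transcription factor of mesenchyme, fell by 0.52 ± 0.10 (SE) per the authors' deposited table (DESeq2 adjusted p = 2.82e-04). Osteoblast markers were above 0 in 5 of 10, with Bglap, osteocalcin, at -0.21 and Phex at 0.18 per the authors' deposited table (adjusted p = 0.472 and 0.554). Of 5 tested chondrocyte markers 2 were above 0 (median -0.06, or -0.12 with the length trend subtracted), with Lect1 at -0.27 and Chad at -0.20 per the authors' deposited table (adjusted p = 0.275 and 0.5). Means in that list ran from 1.15 normalized counts for Matn1, a defining cartilage matrix protein, to 703. The 5 tested markers had a median mean of 153.

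For the tissue junctions where Col22a1 is best known, skeletal muscle and tendon markers are the ones at hand. Of 10 muscle markers 4 had means high enough to be tested, their summed mean over all 10 was 114 normalized counts, and none passed. Creatine kinase Ckm had a mean of 2.94 and the fast myosin Myh4 of 3.09 normalized counts in the authors' deposited table, and Acta1, skeletal actin, with a mean of 44.9, was at -0.0040 (adjusted p = 0.995). Mylpf was at -0.20 and Ttn at 0.03 per the authors' deposited table (adjusted p = 0.47 and 0.908). Of 5 tested tendon markers 2 were above 0 (3 with the length trend subtracted) and none passed. Mkx, a tendon transcription factor, was at 0.34 ± 0.11 (SE) per the authors' deposited table (DESeq2 adjusted p = 0.102). Fmod, also in the tendon list, was at -0.18 (DESeq2 adjusted p = 0.36), and Tnmd, tenomodulin, was at -0.0082, both per the authors' deposited table.

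Most vessel and glial markers were slightly above 0, and none passed. Endothelial markers were above 0 in 5 of 8 (median 0.05), pericyte and smooth muscle markers in 6 of 8 (median 0.06), and Schwann cell and ensheathing glia markers in 6 of 8 (median 0.07). With the length trend subtracted the medians were 0.03, 0.04 and 0.11. Among endothelial markers the smallest p belonged to Cdh5 at 0.14 and Flt1 at 0.12, and among pericyte and smooth muscle markers to Myh11 at 0.17 and Cspg4 at -0.10 per the authors' deposited table, and their adjusted p ran from 0.558 to 0.782. Horizontal basal cell markers were above 0 in 3 of 5, with Krt5 at 0.14 and Krt15 at -0.10 per the authors' deposited table.

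Markers of sustentacular cells, the supporting cells of the epithelium, lay below 0 in 6 of 6 (median -0.10), where 51.1% of all tested genes were above 0, and in 5 of 6 with the length trend subtracted (median -0.07). Of the 6, 2 passed. These were the detoxifying enzymes Aldh1a7, with a log2 fold change of -0.27 (adjusted p = 0.00172), and Cbr2, with -0.26 (adjusted p = 0.0421), both per the authors' deposited table. With the length trend subtracted Cbr2 did not pass (adjusted p = 0.308). Mature neuron markers were above 0 in 2 of 8 (median -0.05) and none passed, with Stoml3 at -0.13 and Ano2 at -0.11 per the authors' deposited table (adjusted p = 0.431 and 0.553). Some markers are shared between lists: Dcn, Lum, Fmod, Kera and Matn1 also stand among the fibril-binding proteins.

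**Figure D5:**
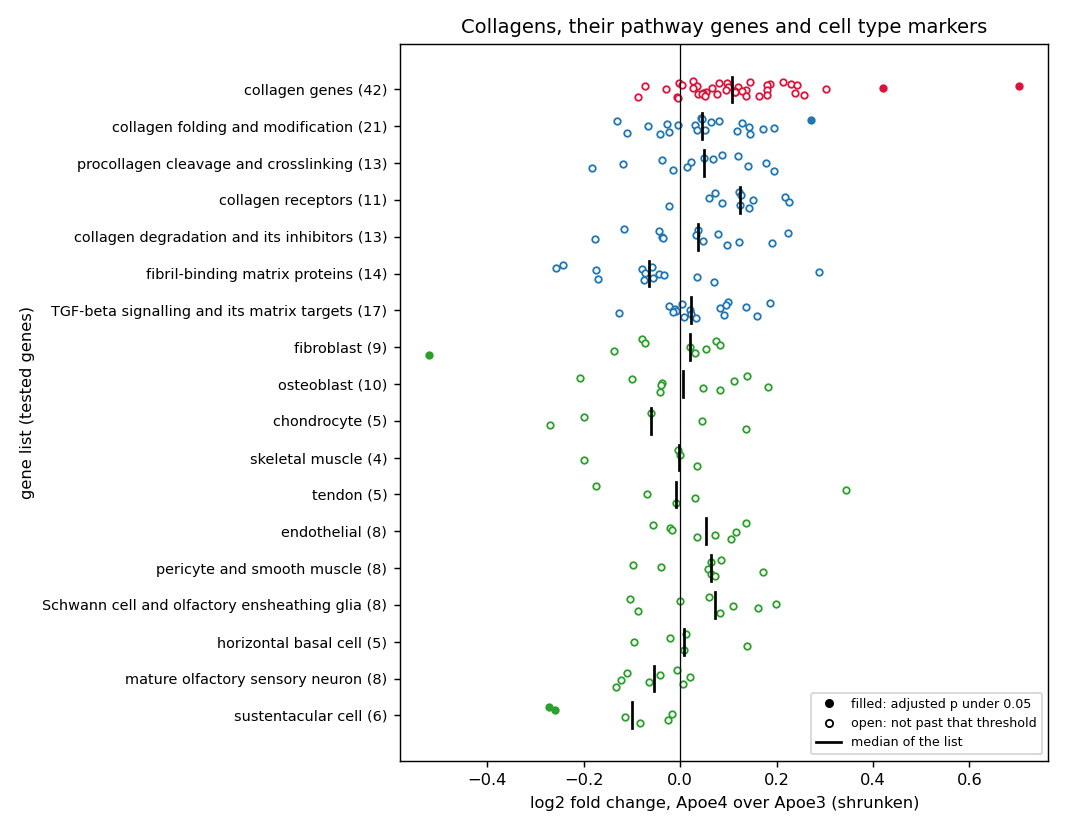
Log2 fold change (Apoe4 over Apoe3, shrunken) of each tested gene in the collagen family (red), 6 collagen pathway lists (blue) and 11 cell type marker lists (green), with the number tested in brackets and the list median as a black bar. Collagens (median 0.11) and their receptors (0.12) lie to the right of 0, fibril-binding proteins (-0.07) and sustentacular markers (-0.10) to the left, and 6 filled points have an adjusted p under 0.05.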

How the data were processed

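RNA of 10 libraries was aligned, counted per gene and compared by the authors, whose tools are STAR, featureCounts and DESeq2 on GRCm38 per the submitters' processing notes, with no versions or settings named in the sources used here. What the authors deposited has 1 row per gene. The mean column is a signal, read counts divided by size factors and averaged over 10 libraries by the authors. The log2 fold changes and log2 standard errors deposited are shrunken, shown by a ceiling of 0.105 on the error. The score deposited is the Wald statistic, equal to fold over error within 1.28e-13. The deposited p-values are two-sided normal ones, and the adjusted p-values are Benjamini-Hochberg over 16050 genes. A low mark from the authors covers 8314 genes, the largest mean among them being 9.99.

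Which allele a positive fold favours is not written in the table and was read from genes with 1 read in 1 library. The 10 lowest levels shared by their means were taken, a number set by the 10 libraries. Of these levels 6 had folds above 0 and 4 below. That split matches 6 Apoe4 and 4 Apoe3 libraries, so a positive fold is higher in Apoe4. The same levels gave size factors from 0.859 to 1.16 and the approximate library sizes. The design named the authors' test for the case of no values per library, and no test on counts was run here. The tests against a fold of 1.2 and with the length trend subtracted reuse the deposited folds, errors and Wald statistics. The series design calls the samples biological replicates. The p-values set each fold against its error, which draws on the spread between them but, being shrunken, is not that spread itself.

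Positions, transcript lengths, exons and coding sequences came from GENCODE vM21, matched by symbol or synonym for 99.4% of tested genes. For the length trend, fold or Wald statistic was smoothed on log2 length by lowess (fraction 0.3, statsmodels 0.14.6). Python 3.11.15 was used, and scripts were tested on simulated data. Members and lists were chosen with earlier results of these data known. Genes named were the called collagens, those with the smallest p or the highest level, and chain partners. In each other list they were the called genes or else the 2 with the smallest p. Omp, Cyp2g1, Serpinh1, Matn1, Ckm, Myh4, Acta1, Tnmd and Aspn, and Fmod among the fibril-binding proteins, were added after their values were seen. The remaining collagens were added in the same way. Not every gene covered by the naming rule is reported here.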

Additional observations from a re-analysis of the deposited data

How the results depend on the processing

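Alternatives were Benjamini-Hochberg adjustment without the filter on low means, without X and Y genes, with the length trend subtracted, and a test of the shrunken fold against 1.2. The 2 collagen calls held without the filter, without X and Y genes and with the length trend subtracted. The first 2 of these settings only redo the adjustment of the same p-values. Leaving out X and Y genes therefore does not address the Y-linked difference between the groups. At an adjusted p under 0.1 the same 2 were called, which holds by definition for calls under 0.05, and no other collagen was added. Against a fold of 1.2, 1 collagen was called, and 0 pathway genes and 0 cell type markers instead of 1 and 3. At an unadjusted p under 0.05, 11 collagens passed, and 5 with the length trend subtracted, a setting chosen after seeing the data. Cbr2 missed the threshold without the filter on means (adjusted p = 0.0532), which left 2 markers, as did subtraction of the length trend. The collagen median of 0.11 was 0.15 with the shrinkage undone by the solution nearer 0. By the solution farther from 0 it was 0.42, a setting added after seeing the data. Both settings take 1 solution for all members alike. The one that applies can differ between members and was not settled for each. The median was 0.10 with all 44 members and 0.057 with the length trend subtracted.

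With the length trend subtracted 7 collagens that had not passed changed sign: Col4a6 (-0.0046), Col7a1 (-0.0052), Col5a3 (-0.0064), Col6a3 (-0.0076), Col6a2 (-0.00099), Col1a2 (-0.012) and Col1a1 (-0.049). Their trend values exceeded their folds, by construction of the subtraction. No paired analysis was possible because the deposited table holds no values per library, and for the same reason no library could be left out and no other normalization was run. Depth limits the members with low means, Col19a1 and Col6a6, which were not tested.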

Other observations

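Genes outside the collagen family can also encode Gly-X-Y helices. A scan of all coding sequences of the table, made after the collagen values were seen, found 19 other genes with a run of at least 20 triplets, of which 12 were tested. None of the 12 was called at an adjusted p under 0.05 by the authors' DESeq2 test, where 0.779% of all tested genes were called. An unadjusted p under 0.05 was found for 2, both lower in Apoe4, where 5.76% of all tested genes were lower at that level: Adipoq, adiponectin, at -0.15, and Colec11, a collectin, at -0.18 per the authors' deposited table (adjusted p = 0.348 and 0.411). Of these 12, 4 were above 0, with a median log2 fold change of -0.04. The collagens had 36 of 42 above 0 and a median of 0.11, or 29 and 0.06 with the length trend subtracted. The 12 have shorter coding sequences, of 247 to 742 codons against a collagen median of 1538.5. Values with the length trend subtracted are not given for the 12, and the difference was not tested. Sftpd, the surfactant collectin with a run of 59 triplets, was at 0.19 ± 0.10 (SE) per the authors' deposited table (adjusted p = 0.487). C1qb, a chain of the complement starter C1q, was at -0.15 ± 0.09 (SE) per the authors' deposited table (adjusted p = 0.576). Gldn, gliomedin, the most abundant of the 12 with a mean normalized count of 2799, was at -0.02 per the authors' deposited table (adjusted p = 0.963).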
